A study of Mus musculus with 14 samples.

Results

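The 9 genes described here encode interleukin-2 (IL-2), the chains of its receptor, the STAT5 factors that carry its signal, and feedback inhibitors of that signal: Il2, Il2ra, Il2rb, Il2rg, Stat5a, Stat5b, Cish, Socs1 and Socs2. They were chosen by name, as the rows of the count table whose Entrez gene identifier belongs to these symbols, and all 9 were found among 27179 genes. All 9 also passed the filter on low counts, which left 13075 genes for testing.

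IL-2 is the growth factor that activated T cells make for themselves and their neighbours. Its receptor joins an alpha chain (CD25, Il2ra), which raises affinity, to the signalling beta chain (CD122, Il2rb) and the common gamma chain (CD132, Il2rg), which the receptors of several other cytokines share. The kinases JAK1 and JAK3 bound to the beta and gamma chains phosphorylate STAT5A and STAT5B, which enter the nucleus and bind DNA. In T cells STAT5 is known to induce Il2ra and the inhibitors Cish, Socs1 and Socs2, to favour effector over follicular helper and Th17 programmes, and to take part in limiting Il2 itself.

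The study profiled CD4 T cells of C57BL/6 mice by bulk RNA sequencing. Naive cells were activated on plate-bound antibodies against CD3 and CD28 for 3.5 days, and the stained cells were sorted by flow cytometry before 100 ng of RNA entered each library. The groups were Th1 (5 libraries), TfhA, a follicular helper culture in which antibody blocks TGF-β (replicates 1, 2, 4 and 5, 4 libraries in all), and Tfh5, the follicular helper culture with TGF-β added at 5 ng/ml (5 libraries). The sources used here do not give the cytokines and antibodies of the Th1 culture, the gates of the sort, or whether IL-2 was added to or blocked in any culture. Nor do they say whether libraries came from separate mice or cultures, so p-values measure the spread between these libraries, which may be technical.

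Library totals ran from 8805921 to 16108059 counts, and Th1 libraries were deeper (13390058 to 16108059) than TfhA (8805921 to 13027721) and Tfh5 libraries (9766313 to 13316633). Mitochondrial genes took 5.91 ± 0.871% of counts in Th1, 5.82 ± 1.30% in TfhA and 8.03 ± 0.594% in Tfh5 (mean ± SD). The CD4 T cell label was met by all 7 identity markers at or above 5 CPM (counts scaled to library size and composition) in each group, Cd4 itself at 460.2 ± 23.9, 399 ± 30.5 and 548 ± 26.6 CPM. Markers of other cells were mostly low. Ncr1, an NK cell receptor, had no count in any group, and the B cell gene Ms4a1 was below 5 CPM throughout. In all values below n is 5 for Th1, 4 for TfhA and 5 for Tfh5, and a gene passed a comparison at an adjusted p under 0.05.

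Promoter sequence was matched for 7 of the 9 genes in RefSeq (GRCm38.p6), and 3 of them are shown because their levels moved most (Il2, Cish) or because the gene is the most abundant of the family (Il2ra). Each runs from 250 bases before to 25 after the annotated start site, 5′ to 3′ on the gene's strand. The Il2 window is chr3:37125930-37126204 on the minus strand, with capitals at both matches to GGAAA, the core recognised by NFAT, found on either strand. The Cish window is chr9:107296409-107296683 on the plus strand, with capitals at matches to TTCNNNGAA, the palindromic GAS element that STAT5 dimers recognise. The Il2ra window is chr2:11642542-11642816 on the plus strand, with capitals at a match, on the opposite strand, to an NF-kB pattern (GGG, any 3 bases, TTCC).
Il2: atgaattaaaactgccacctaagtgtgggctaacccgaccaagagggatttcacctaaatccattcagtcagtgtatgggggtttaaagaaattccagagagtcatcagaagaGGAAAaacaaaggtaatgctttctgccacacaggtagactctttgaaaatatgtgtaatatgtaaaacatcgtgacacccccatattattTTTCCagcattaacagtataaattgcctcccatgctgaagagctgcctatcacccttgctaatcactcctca
Cish: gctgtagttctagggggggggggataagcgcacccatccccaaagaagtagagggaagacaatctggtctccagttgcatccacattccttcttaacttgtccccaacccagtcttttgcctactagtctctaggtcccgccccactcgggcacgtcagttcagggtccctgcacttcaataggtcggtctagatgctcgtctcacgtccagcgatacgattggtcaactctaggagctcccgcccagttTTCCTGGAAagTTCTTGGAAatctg
Il2ra: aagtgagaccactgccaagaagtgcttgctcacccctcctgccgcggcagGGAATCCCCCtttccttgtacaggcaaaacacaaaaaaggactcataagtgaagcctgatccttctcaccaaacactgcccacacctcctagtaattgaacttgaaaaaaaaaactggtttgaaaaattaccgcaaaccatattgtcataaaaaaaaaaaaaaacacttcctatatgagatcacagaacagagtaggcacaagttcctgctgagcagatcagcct

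The Cish sequence holds GAS matches that begin 1 and 12 bases into the transcript, almost back to back. Of 32851 RefSeq promoter windows of 300 bases (250 before and 50 after the start), 8.3% held at least 1 GAS match and 0.457% held 2 or more, counting both strands. None of the other 8 windows of these genes held one, where Stat5a and Stat5b have 2 windows each. The NFAT core is short, and 61.3% of windows held at least 1 and 26.7% at least 2, as Il2 does 137 and 47 bases before its start. Both Cish GAS matches overlap matches to that core. The NF-kB pattern stood in 5.56% of windows, and in Il2ra lies 200 bases before the start. The AP-1 pattern TGANTCA, present in 7.81%, was in none of these windows. Such matches describe letters and are not evidence of binding.

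Il2 (chromosome 3, mm10, 37120713 to 37125954, minus strand) was lowest in Th1, highest in TfhA and in between in Tfh5, with no overlap between any of the groups. In Th1 replicates 1 to 5 its level was 1.87, 3.19, 3.7, 1.66 and 2.97 CPM. In TfhA replicates 1, 2, 4 and 5 it was 63.3, 54.0, 46.9 and 94.1 CPM. In Tfh5 replicates 1 to 5 it was 9.52, 5.51, 11, 7.5 and 8.44 CPM. The lowest TfhA library was thus above every Tfh5 library, and the lowest Tfh5 library above every Th1 library. The Th1 values are sparse, with 188 counts over the group against 2789 in TfhA and 463 in Tfh5. Tfh5 was 7.66-fold below TfhA (log2 fold change -2.94 ± 0.21 SE, adjusted p = 1.19e-11), and TfhA was 24.2-fold above Th1 (4.60 ± 0.23, adjusted p = 5.00e-14). Tfh5 was 3.16-fold above Th1 (1.66 ± 0.24, adjusted p = 1.21e-06).

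Among genes that mark gamma-delta T cells, Trdc and Trgc1 had group means in the order of Il2, and Trgc2 and Sox13 did not. Their summed level, over 4 genes found, lay in Th1 between 4.39 and 8.67 CPM, in TfhA between 36.9 and 91.4, and in Tfh5 between 7.77 and 15.8, and Trdc, the delta constant gene, was at 5.54 ± 1.49, 53.5 ± 19.3 and 11.8 ± 3.19 CPM. Of these genes Trdc alone reached 5 CPM in Th1 and Tfh5, and Trgc2 joined it in TfhA. Trgc1 was at 0.122, 1.34 and 1.19 CPM in Th1, TfhA and Tfh5, and did not pass between Tfh5 and TfhA. Trgc2 was at 0.262, 5.10 and 0.0760 CPM, and Sox13 at 0.487, 0.191 and 0.0189 CPM. Within TfhA the order differed, with replicate 4 highest in these markers and lowest in Il2, and replicate 5 highest in Il2. The part of such cells in the Il2 difference was not tested. In bulk RNA, fewer expressing cells and less RNA per cell cannot be told apart, here and for every gene below.

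**Figure D1:**
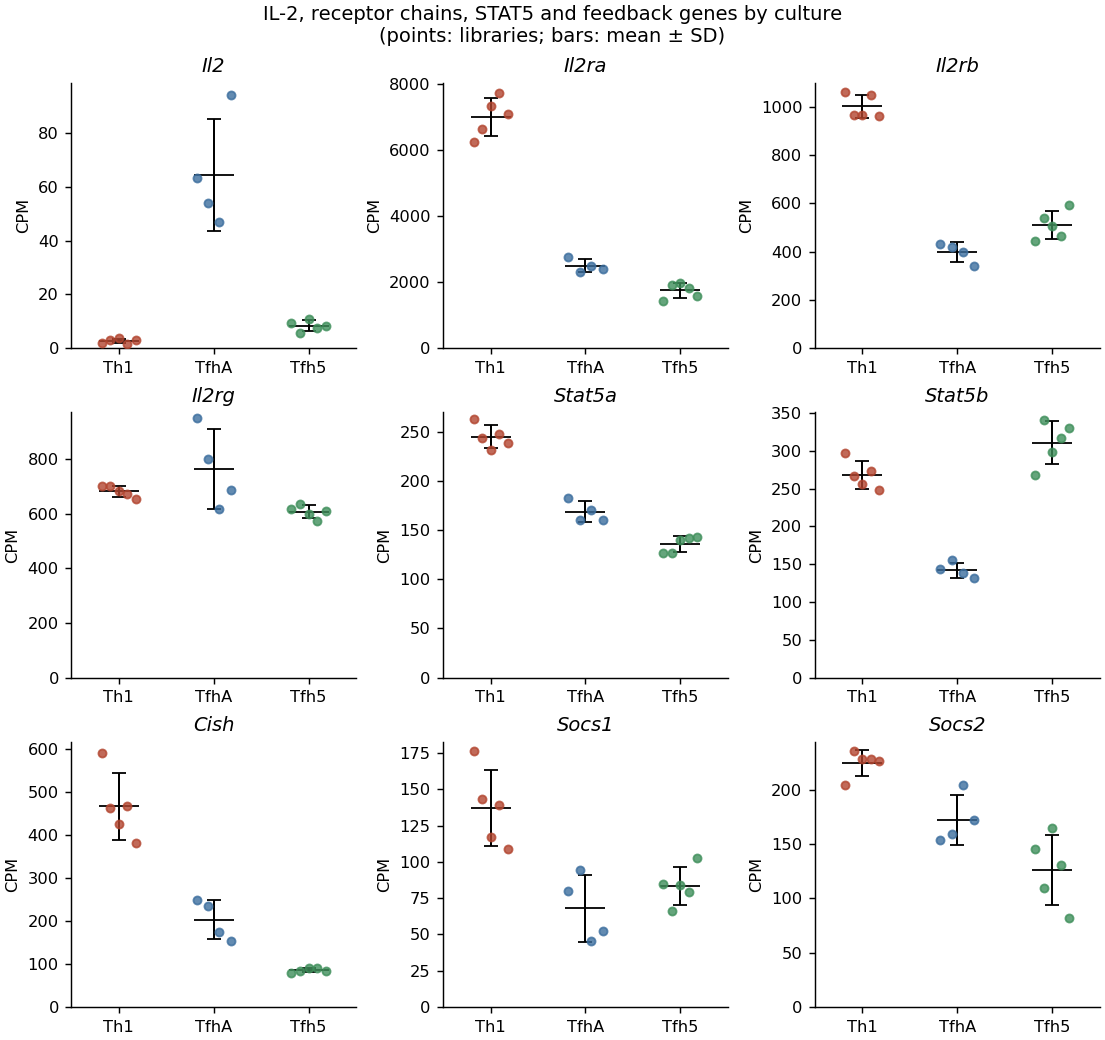
Levels of the 9 genes in CPM (vertical axes, linear and starting at 0) in each library of Th1, TfhA and Tfh5 (horizontal axes), with bars for the mean ± SD. Il2 stands highest in TfhA, Il2ra, Il2rb, Stat5a, Cish, Socs1 and Socs2 stand highest in Th1, and Stat5b is lowest in TfhA at 131 to 155 CPM.

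Il2ra, the alpha chain, followed another order: Th1 above TfhA above Tfh5. The gene lies on chromosome 2 (11642792 to 11693194, plus strand). Its level was 6238, 6632, 7356, 7724 and 7090.4 CPM in Th1 replicates 1 to 5. It was 2765, 2299, 2499 and 2414 CPM in TfhA replicates 1, 2, 4 and 5. It was 1438, 1921, 1988, 1814 and 1587 CPM in Tfh5 replicates 1 to 5. No library of one group reached into another, and Il2ra took 0.688% of all counts in Th1, 0.255% in TfhA and 0.175% in Tfh5. TfhA was 2.81-fold below Th1 (-1.49 ± 0.11, adjusted p = 4.44e-11), Tfh5 a further 1.43-fold below TfhA (-0.51 ± 0.10, adjusted p = 1.64e-04), and Tfh5 4.01-fold below Th1 (-2.0 ± 0.10, adjusted p = 8.17e-15). Il2 and Il2ra thus did not share an order: the group with most Il2 was not the group with most Il2ra.

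Regulatory T cells carry much CD25, so their markers stand beside this result. The 7 listed genes summed in Th1 to between 1151 and 1288 CPM, in TfhA to between 575 and 628, and in Tfh5 to between 740 and 918, with no gene at 0. Foxp3, which defines these cells, was low but detected in every library (Th1 between 0.838 and 4.44 CPM, TfhA between 0.637 and 3.57, Tfh5 between 2.69 and 5.81). Ctla4 was at 606 ± 46.7, 221 ± 20.6 and 643 ± 62.0 CPM and Tnfrsf18 at 450.1 ± 51.0, 191 ± 26.5 and 70.3 ± 8.09 CPM in Th1, TfhA and Tfh5. Both had the highest means of the list in each group, and the list did not move one way. From Th1 to TfhA, Ikzf4 was 3.56-fold lower, like Ctla4 and Tnfrsf18. Nrp1 was 2.06-fold and Lrrc32 1.61-fold higher in TfhA than in Th1 (adjusted p = 3.39e-09 and 0.00492). Ikzf2 and Foxp3 did not pass in that comparison. The part of regulatory T cells in the Il2ra differences was not tested.

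Il2rb, the beta chain that signals for IL-2 and IL-15, was highest in Th1 and lowest in TfhA. The gene lies on chromosome 15 (78479256 to 78511621, minus strand). Th1 libraries held 1062, 967, 967, 1048 and 963 CPM. TfhA libraries held 433, 419, 398 and 339 CPM. Tfh5 libraries held 444, 540.3, 508, 465 and 594 CPM. The highest TfhA library lay just under the lowest Tfh5 library, while both groups were far below Th1. TfhA was 2.52-fold below Th1 (-1.33 ± 0.10, adjusted p = 7.02e-11) and Tfh5 1.96-fold below Th1 (-0.97 ± 0.09, adjusted p = 1.17e-09). Tfh5 was 1.28-fold above TfhA (0.36 ± 0.10, adjusted p = 0.00257), the direction opposite to that of Il2ra. NK and CD8 T cells also express Il2rb, and their 7 markers summed in Th1 to between 60.5 and 102 CPM, in TfhA to between 64.2 and 94.7, and in Tfh5 to between 66.7 and 113, ranges that overlap. Single markers moved in opposite directions: Klrk1 was at 40.9 ± 6.28, 23.1 ± 6.53 and 0.916 ± 0.703 CPM in Th1, TfhA and Tfh5, and Klrd1 at 16.6 ± 3.94, 40.3 ± 11.2 and 73.4 ± 17.9 CPM. Cd8b1 was at 17.8 ± 8.70, 10.7 ± 6.04 and 12.9 ± 4.89 CPM in Th1, TfhA and Tfh5. Its group means stood in the order of Il2rb, but it did not pass in any comparison. Ncr1 was at 0 in all groups and Klrb1c in TfhA. The part of such cells in the Il2rb differences was not tested.

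Il2rg (chromosome X, 101264385 to 101268255, minus strand), the common gamma chain, had the smallest ratio of its highest to its lowest group mean among the 9 genes. Its means were 682 ± 20.8 CPM in Th1, 763 ± 146 in TfhA and 607 ± 23.4 in Tfh5. TfhA was spread widely, at 951, 799, 616 and 685 CPM, and the first values, of replicates 1 and 2, came from the deepest TfhA libraries; the part of depth was not tested. Tfh5 was 1.26-fold below TfhA (-0.33 ± 0.10, adjusted p = 0.00655), with groups that overlapped, and without TfhA replicate 1 the difference was -0.21 with an adjusted p of 0.0664. Neither comparison with Th1 passed (TfhA 0.16 ± 0.10, adjusted p = 0.194, and Tfh5 -0.17 ± 0.09, adjusted p = 0.124), although without TfhA replicate 4 the first became 0.25 with an adjusted p of 0.0350. Another annotated gene, Gm20489, shares 728 exon bases with Il2rg on the same strand, 30.5% of its exons, and how reads there were counted was not stated.

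The paralogs Stat5a and Stat5b lie next to each other on chromosome 11, with 346 bases between them (Stat5b 100780731 to 100859004, minus strand, and Stat5a 100859351 to 100885169, plus strand). Their transcripts are alike: 8.21% of the 50-base windows of Stat5a and 11% of those of Stat5b occur in the other gene, so some reads could be placed in either. Stat5a held 263, 243, 232, 248 and 239 CPM in Th1 libraries. It held 183, 160.4, 171 and 160.5 CPM in TfhA libraries and 127, 127, 139.8, 142 and 143 CPM in Tfh5 libraries. The groups did not overlap and stood in the order seen for Il2ra. Stat5a was 1.45-fold lower in TfhA than in Th1 (-0.54 ± 0.08, adjusted p = 1.08e-05), 1.24-fold lower in Tfh5 than in TfhA (-0.31 ± 0.08, adjusted p = 0.0023) and 1.80-fold lower in Tfh5 than in Th1 (-0.85 ± 0.08, adjusted p = 8.34e-10). Its exons share 72 bases with Stat3 on the opposite strand.

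Stat5b moved otherwise and was lowest in TfhA. It held 297, 266, 256, 273 and 248 CPM in Th1 libraries. It held 144, 155, 138 and 131 CPM in TfhA libraries and 268, 340.2, 298, 317 and 329.8 CPM in Tfh5 libraries. Every TfhA library was below every library of the other groups, and Th1 and Tfh5 overlapped. Tfh5 was 2.19-fold above TfhA (1.13 ± 0.09, adjusted p = 1.40e-10), and TfhA 1.89-fold below Th1 (-0.92 ± 0.09, adjusted p = 1.30e-08). The difference between Tfh5 and Th1 was small (0.21 ± 0.08, adjusted p = 0.0307). That call was lost without any one of Th1 replicates 2, 3 and 5 or Tfh5 replicates 2 and 5 (adjusted p = 0.0535 to 0.0886, within 0.00676 to 0.0887 over all alternatives).

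Cish, an SH2 protein that STAT5 induces and that restrains cytokine and T cell receptor signals, fell in the same order as Il2ra and Stat5a. The gene lies on chromosome 9 (107296659 to 107302784, plus strand), at the GAS pair shown above. It held 592, 464, 427, 469 and 383 CPM in Th1 libraries. It held 248, 235, 175 and 154 CPM in TfhA libraries and 79.5, 84.5, 90.2, 90.3 and 83.0 CPM in Tfh5 libraries. The 3 groups were apart, and Tfh5 libraries lay close together. Cish was 2.30-fold lower in TfhA than in Th1 (-1.20 ± 0.13, adjusted p = 4.82e-08), 2.38-fold lower in Tfh5 than in TfhA (-1.25 ± 0.13, adjusted p = 7.70e-09) and 5.46-fold lower in Tfh5 than in Th1 (-2.45 ± 0.13, adjusted p = 1.04e-14). Exons of Gm17040 and Gm17041 on the opposite strand share 261 and 479 bases with it, and whether the counting used strand was not stated.

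Socs1, which blocks JAK kinases after many cytokines, was higher in Th1 than in the follicular helper cultures. The gene lies on chromosome 16 (10783808 to 10785536, minus strand). It held 176, 143, 117, 139 and 109 CPM in Th1 libraries, 80.2, 94.4, 45.7 and 52.2 in TfhA libraries and 84.6, 66.4, 83.8, 79.3 and 103 in Tfh5 libraries. Both follicular helper groups lay below Th1 without overlap and overlapped each other. TfhA was 2.01-fold below Th1 (-1.0 ± 0.17, adjusted p = 4.07e-05) and Tfh5 1.64-fold below Th1 (-0.72 ± 0.16, adjusted p = 3.71e-04). The difference between Tfh5 and TfhA did not pass (0.29 ± 0.17, adjusted p = 0.156), and without TfhA replicate 2 it was 0.49 with an adjusted p of 0.0162. Replicate 1 of Th1, the deepest library, was highest in both Cish and Socs1, and the deepest TfhA libraries, replicates 1 and 2, were the higher ones for both genes; the part of depth was not tested.

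Socs2 (chromosome 10, 95383903 to 95417321, minus strand), a SOCS protein best known for limiting growth hormone signals through STAT5B, stood highest in Th1 and lowest in Tfh5. It held 205, 235, 228, 228 and 227 CPM in Th1 libraries, 153, 159, 204 and 172 in TfhA libraries and 145, 109, 165, 131 and 81.9 in Tfh5 libraries. TfhA and Th1 came close without overlapping, and TfhA and Tfh5 overlapped. Tfh5 was 1.36-fold below TfhA (-0.45 ± 0.14, adjusted p = 0.00732) and 1.78-fold below Th1 (-0.83 ± 0.13, adjusted p = 4.63e-06). TfhA was 1.31-fold below Th1 (-0.39 ± 0.14, adjusted p = 0.0248). That last call was lost without TfhA replicate 1 or 2 (adjusted p = 0.0848 and 0.0624) and with scaling by library totals alone (adjusted p = 0.0551).

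**Figure D2:**
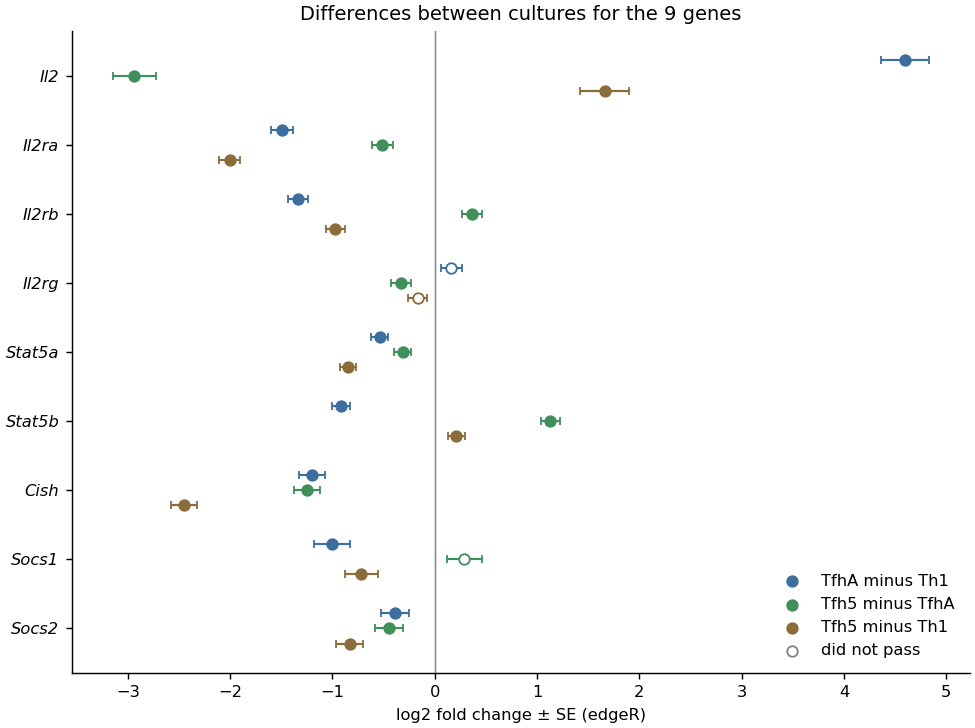
Log2 fold changes ± SE from edgeR (horizontal axis) of the 9 genes (vertical axis) in each comparison, with open circles where the adjusted p did not pass 0.05. Il2 lies apart from the rest at 4.60 in TfhA against Th1, Cish and Il2ra are negative in all comparisons, and Stat5b is at 1.13 in Tfh5 against TfhA, -0.92 in TfhA against Th1 and 0.21 in Tfh5 against Th1.

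Read by comparison, the question of Tfh5 against TfhA is what TGF-β does in the follicular helper culture. Of the 9 genes, 2 were higher in Tfh5 (Il2rb, Stat5b), 6 were lower and Socs1 did not pass, where 57.5% of all tested genes passed (27.4% higher, 30.1% lower). In 6 of the 9 the groups did not overlap, beside 44.2% of all tested genes. In TfhA against Th1, 1 gene was higher (Il2), 7 were lower and Il2rg did not pass, beside 44.8% of all genes (23.2% higher, 21.6% lower), and 8 did not overlap, beside 38.1%. In Tfh5 against Th1, 2 were higher (Il2, Stat5b), 6 lower and Il2rg did not pass, beside 64.6% (31.5% higher, 33% lower), and 8 did not overlap, beside 50.2%. Passing was thus common in the whole table, and the members' median log2 fold changes were -0.33, -0.92 and -0.83 beside -0.01, 0.03 and -0.01 for all tested genes. The comparisons share groups and are not independent.

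Levels of different genes can be set side by side only per length, here as CPM per kilobase of the longest coding transcript. That transcript is 2222 bases for Socs2, 2850 for Cish and 3888 for Stat5a, against 9531, 6419 and 7133 over all annotated exons. Places in the order were taken on the transcript length alone and can differ with another length. Per kilobase of that transcript Il2ra was the most abundant member in every group, at 1588 ± 133 in Th1, 565 ± 45.0 in TfhA and 397 ± 52.4 in Tfh5. It ranked 19th of 14923 coding genes with a count in Th1, 54th of 14408 in TfhA and 76th of 14036 in Tfh5. Il2rg was number 2 in each group (408 ± 12.4, 457 ± 87.6 and 363 ± 14) and Il2rb number 3 (239 ± 11.8, 94.7 ± 9.80 and 122 ± 14.3). In Th1 every library of Il2ra was above every library of Il2rg, and in TfhA and Tfh5 their libraries overlapped. Cish was number 4 in Th1 at 164 ± 27.3, number 5 in TfhA at 71.3 ± 16.0 and number 7 in Tfh5 at 30.0 ± 1.64, below Stat5b at 59.6 ± 5.47. Il2 was last in Th1 at 2.34 ± 0.767 and in Tfh5 at 7.34 ± 1.82, and number 6 in TfhA at 56.5 ± 18.2, where it overlapped its neighbours in the order, Cish and Stat5a.

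**Figure D3:**
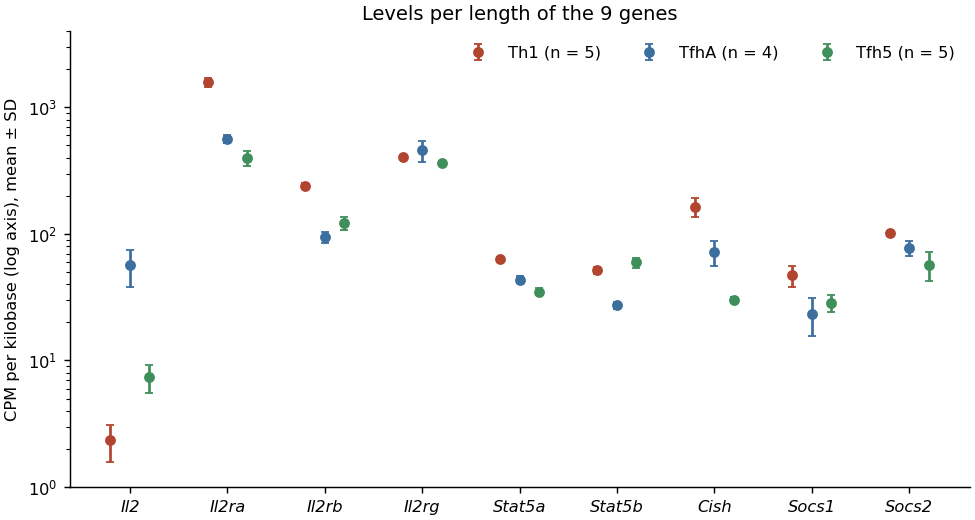
Mean level ± SD of the 9 genes in CPM per kilobase of the longest coding transcript (vertical axis, log scale) in Th1, TfhA and Tfh5. Il2ra falls from 1588 in Th1 to 397 in Tfh5, Il2rg stays between 363 and 457, and Il2 spans the widest range, from 2.34 in Th1 to 56.5 in TfhA.

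Ratios of 2 genes within a library do not depend on library scaling, and 5 were compared over the 3 pairs of groups with exact two-sided permutation tests, adjusted over the 15 tests. The smallest p that 5 against 5 libraries allow is 0.00794, and 0.0159 for 5 against 4. Counts here are not divided by transcript length, so a ratio above or below 1 does not say which gene was higher per length. Counts of Il2ra were 7.01 ± 0.694 times those of Il2rb in Th1, 6.32 ± 0.665 times in TfhA and 3.46 ± 0.518 times in Tfh5. The ratio was lower in Tfh5 than in TfhA by -0.88 on the log2 scale and than in Th1 by -1.03 (exact permutation adjusted p = 0.0198 for both), and TfhA and Th1 were not told apart (-0.15, exact permutation adjusted p = 0.204). Il2rb to Il2rg was 1.47 ± 0.0724 in Th1, 0.530 ± 0.0825 in TfhA and 0.841 ± 0.0928 in Tfh5, and all 3 comparisons passed (exact permutation adjusted p = 0.0198).

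Stat5a to Stat5b was 0.914 ± 0.0278 in Th1, 1.19 ± 0.106 in TfhA and 0.439 ± 0.0405 in Tfh5, with no overlap between groups and an exact permutation adjusted p of 0.0198 in each comparison. Stat5a counts exceeded those of Stat5b in every TfhA library and were below them in every library of the other groups. Per kilobase of the longest coding transcript, Stat5a was above Stat5b in Th1 (63.0 against 51.4) as well as in TfhA (43.4 against 27.2). It was below Stat5b in Tfh5 (34.9 against 59.6). These transcripts are 3888 bases for Stat5a and 5213 for Stat5b, against 7133 and 5539 over all annotated exons. The order of Stat5a and Stat5b in Th1 and TfhA thus depends on the length used. Cish to Socs1 was 3.42 ± 0.156, 3.09 ± 0.559 and 1.05 ± 0.18 in Th1, TfhA and Tfh5. It was lower in Tfh5 than in both other groups (-1.56 and -1.73 on the log2 scale, exact permutation adjusted p = 0.0198) and did not pass between TfhA and Th1 (-0.16, exact permutation adjusted p = 0.254, and -0.27 with 0.0412 without TfhA replicate 4). Socs2 to Cish was 0.493 ± 0.0913, 0.894 ± 0.286 and 1.48 ± 0.361 in the same order. Both comparisons with Th1 passed (exact permutation adjusted p = 0.0198), and that of Tfh5 with TfhA did not (0.75, exact permutation adjusted p = 0.0733, and 0.88 with 0.0330 without Tfh5 replicate 5).

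**Figure D4:**
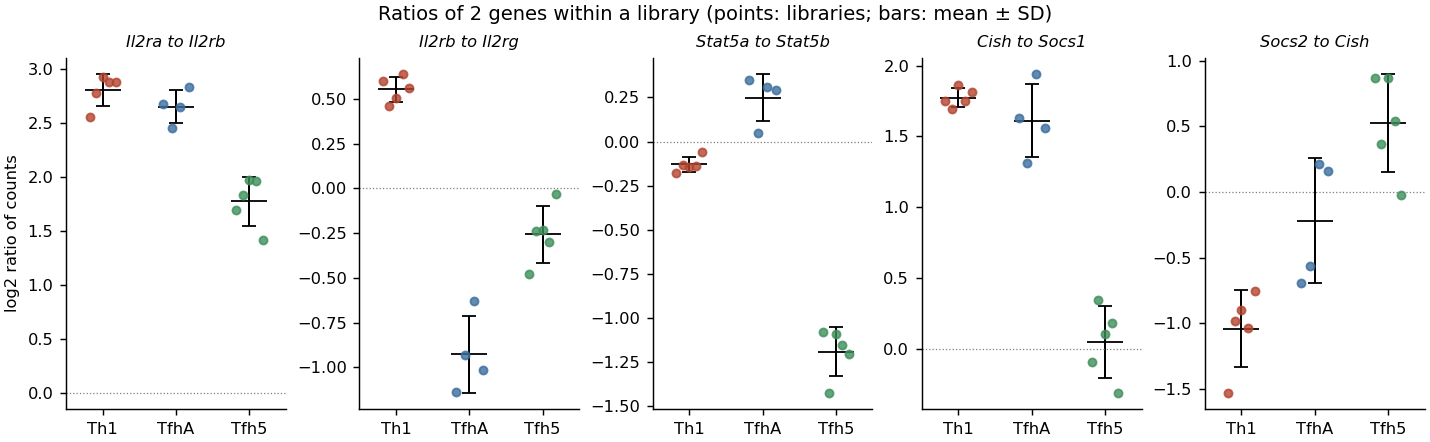
Log2 ratios of the counts of 2 genes within each library (vertical axes, each with its own range) in Th1, TfhA and Tfh5, with bars for the mean ± SD and a dotted line at 0, where counts are equal. Stat5a to Stat5b is above 0 in the 4 TfhA libraries alone, and Cish to Socs1 is near 0 in Tfh5. Counts are not divided by transcript length.

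Genes around the receptor were read from lists chosen from general knowledge, but with earlier results of these data known. The counts for these lists are therefore a description and not an independent test. Their counts stand beside the shares of all tested genes: 27.4% higher and 30.1% lower in Tfh5 against TfhA, 23.2% and 21.6% in TfhA against Th1, and 31.5% and 33% in Tfh5 against Th1. Of 11 signalling partners of the receptor, 6 were higher and 2 lower in Tfh5 than in TfhA. Pik3r1, the regulatory subunit of PI3 kinase, was 2.23-fold higher (279 ± 41.1 against 125 ± 18.0 CPM), the adaptor Gab2 2.43-fold and the kinase Jak3 1.45-fold, while Pik3cd was 1.36-fold and the phosphatase Ptpn11 1.28-fold lower. Against Th1, TfhA had 1 higher, Jak1 (1.42-fold), and 2 lower, Jak3 (1.36-fold) and Pik3r1 (1.42-fold), so that 8 of 11 did not pass where 44.8% of all genes passed. Jak1, the kinase bound to the beta chain, was thus at 327 ± 7.14 CPM in Th1, 463 ± 32.6 in TfhA and 610.0 ± 45.8 in Tfh5, and passed in each comparison. Between Tfh5 and Th1, 4 were higher and 3 lower, Gab2 being 2.04-fold higher; Akt1 was 1.18-fold lower, a call lost in 8 of 22 alternatives. The median log2 fold changes of the list were 0.32, -0.11 and 0.07 for Tfh5 against TfhA, TfhA against Th1 and Tfh5 against Th1.

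Among 13 other inhibitors of JAK and STAT signals, 6 were higher and 2 lower in Tfh5 than in TfhA (median 0.28). Socs5 was 2.11-fold higher (37.1 ± 6.82 against 17.6 ± 1.32 CPM), Pias3 1.74-fold and Socs6 1.48-fold, while the phosphatase Ptpn6 was 1.57-fold and Ptpn2 1.27-fold lower. In TfhA against Th1, 1 was higher and 4 were lower (median -0.03), with Pias3 1.83-fold, Pias4 1.62-fold and Ptpn1 1.35-fold lower. The one higher gene, Ptpn6 (1.19-fold, adjusted p = 0.0379), lost its call in 10 of 22 alternatives, among them leaving out any one of Th1 replicates 2, 3, 4 and 5 and TfhA replicates 1, 2 and 4. In Tfh5 against Th1, 4 were higher and 4 lower (median -0.00), among them Socs5 at 2.09-fold and Socs3 at 1.52-fold higher, and Pias4 at 1.88-fold and Ptpn1 at 1.58-fold lower.

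Of 10 genes for other cytokines and receptor chains of the common gamma family, 8 could be tested. In Tfh5 against TfhA, 2 were higher and 4 lower (median -0.82). Il21, the follicular helper cytokine, was 1.94-fold higher (737 ± 89.5 against 379 ± 37.3 CPM) and the IL-7 receptor chain Il7r 2.06-fold, while the IL-15 receptor alpha chain Il15ra was 3.28-fold (5.01 ± 1.48 against 16.3 ± 2.02 CPM), Il21r 2.22-fold and Il4ra 1.41-fold lower. In TfhA against Th1, 1 was higher and 4 lower (median -0.44), with Il21 1.81-fold higher, and Il7r 2.29-fold and Il15ra 1.52-fold lower. In Tfh5 against Th1, 1 was higher and 6 lower (median -1.50), with Il15ra 4.99-fold and Il21r 2.7-fold lower. Among other STAT genes, Stat3, which carries IL-6 and IL-21 signals, was 1.47-fold higher and Stat2 1.57-fold lower in Tfh5 than in TfhA. Stat2, of the interferon response, was 1.95-fold lower in TfhA than in Th1, and Stat4 1.21-fold, a call lost in 7 of 22 alternatives.

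The 24 genes listed as induced through STAT5 were mostly lower in both follicular helper cultures. In TfhA against Th1, 18 were lower and 2 higher (median -0.88, beside 0.03 for all tested genes). In Tfh5 against TfhA, 19 were lower and 5 higher (median -1.24, beside -0.01), and in Tfh5 against Th1, 21 were lower and 2 higher (median -1.96, beside -0.01). The list includes genes of effector and cytotoxic programmes, among them Prdm1, Il12rb2, Gzmb and Prf1. The part of STAT5 in these differences was not tested. Prdm1, which encodes Blimp-1, a repressor of Il2 and Bcl6, was at 42.0 ± 4.66 CPM in Th1, 3.76 ± 0.971 in TfhA and 0.130 ± 0.110 in Tfh5. Lta, the cytokine lymphotoxin alpha, was at 1161 ± 86.0, 155 ± 33.1 and 61.3 ± 3.88 CPM. Il12rb2, the IL-12 receptor chain, was at 2365 ± 268, 794 ± 146 and 46.4 ± 6.44 CPM. Each of these 3 genes passed in all comparisons. Prf1, the pore protein perforin, was 9.04-fold lower in Tfh5 than in TfhA (0.922 ± 0.682 against 8.52 ± 4.03 CPM).

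Some listed genes did not follow that order. Gzmb, the granzyme of cytotoxic cells, was 2.53-fold higher in TfhA than in Th1 (1472 ± 226 against 583 ± 69.0 CPM) and nearly absent in Tfh5 (4.97 ± 6.28 CPM), where replicate 1 alone held 16.1 CPM. Its fold decrease from TfhA to Tfh5 was 296 with that library and 642 without it, and granzyme genes resemble each other, so its level depends on how reads with several matches were counted. Furin, a protease that processes pro-TGF-β, was 16.4-fold lower in TfhA than in Th1 (48.3 ± 7.51 against 792 ± 86.5 CPM) and 5.07-fold higher in Tfh5 than in TfhA (245 ± 37.1 CPM). Tnfrsf1b, a TNF receptor, was 3.26-fold higher in Tfh5 than in TfhA, and Irf4, a factor of activated T cells, 2.20-fold. Mcl1, a survival gene, was higher at each step (267 ± 10.1, 334 ± 21.0 and 506 ± 27.1 CPM).

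All 8 genes listed as repressed through STAT5 were higher in Tfh5 than in TfhA (median 2.55). They include the cytokines of Th17 cells and the receptor and factor of follicular helper cells, which define those programmes in their own right. Il17a rose 712-fold, from 0.428 ± 0.209 to 317 ± 48.0 CPM, Il17f 216-fold to 3274 ± 352 CPM, and Cxcr5, the homing receptor for B cell follicles, 40.1-fold to 79.3 ± 6.65 CPM. In TfhA against Th1, 3 were higher and 1 lower (median 0.63): Il17f 6.4-fold (19.2-fold without Th1 replicate 2, the only Th1 library above 1 CPM), Tcf7 5.33-fold, and the IL-6 receptor Il6ra 2.41-fold higher, and Il7r lower. Without Th1 replicate 2 the number higher was 5. Bcl6 stood at 12.3 ± 2.83 CPM in Th1 and 16.3 ± 5.07 in TfhA, a difference that did not pass (0.42 ± 0.18, adjusted p = 0.061), and at 105 ± 16.6 in Tfh5. In Tfh5 against Th1, 7 were higher and Il7r did not pass (median 3.58).

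**Figure D5:**
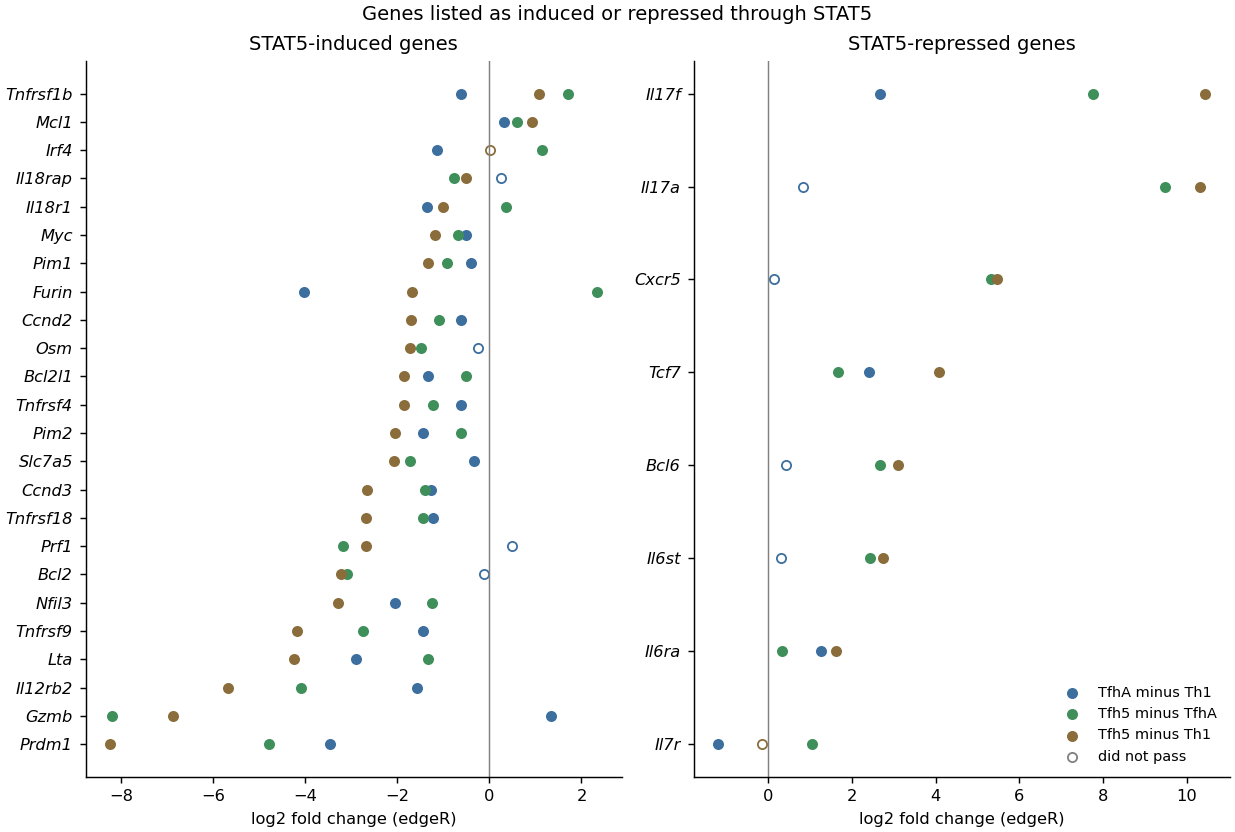
Log2 fold changes from edgeR (horizontal axes) of the 24 genes listed as induced (left) and the 8 listed as repressed (right) through STAT5, in each comparison, with open circles where the adjusted p did not pass 0.05. Most induced genes lie left of 0, with Furin, Irf4, Tnfrsf1b, Mcl1 and Il18r1 right of 0 in Tfh5 against TfhA, and all repressed genes lie right of 0 in that comparison.

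The 22 listed regulators of Il2 transcription did not move one way. In TfhA against Th1, where Il2 was 24.2-fold higher, 8 were higher and 9 lower (median -0.00). Egr1, which the T cell receptor induces, was 3.01-fold higher (211 ± 60.7 against 70.3 ± 11.2 CPM), Ikzf1, which encodes the repressor Ikaros, 1.83-fold and Fos 2.94-fold. Crem, a repressor at the Il2 promoter, was 3.76-fold lower (177 ± 27.3 against 666 ± 77.6 CPM), as were Jun (3.16-fold) and Fosl2 (2.28-fold). In Tfh5 against TfhA, 9 were higher and 4 lower (median 0.17). Ikzf3, which encodes Aiolos, a repressor of Il2, rose 19.2-fold, from 34.1 ± 2.02 to 655 ± 109.9 CPM, Jun 2.65-fold and Tob1, an inhibitor of proliferation, 2.46-fold. Rel, which encodes the NF-kB factor c-Rel, an activator of Il2, fell 1.73-fold (25 ± 6.06 against 43.2 ± 6.61 CPM), as did Junb (1.73-fold). In Tfh5 against Th1, 11 were higher and 9 lower, with Ikzf3 23.9-fold and Fos 5.97-fold higher and Crem 3.97-fold lower. The listed NFAT factors did not move one way either. Nfatc1 was higher in each step, at 155 ± 8.83, 250.1 ± 38.6 and 385 ± 63.8 CPM in Th1, TfhA and Tfh5. Nfatc3 was also higher in each step, at 277, 403 and 644 CPM. Nfatc2 went the other way, at 355, 256 and 229 CPM. It was 1.39-fold lower in TfhA than in Th1 and 1.55-fold lower in Tfh5 than in Th1. Its difference between Tfh5 and TfhA did not pass (-0.16 ± 0.11, adjusted p = 0.215).

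The genes whose log2 CPM was most like each member over the 14 libraries, among 9519 genes with at least 5 CPM on average, are given as a description, since the libraries fall into 3 groups and share depth and composition. For Il2 these were Ifi209 (Pearson r = 0.983), Atp10a and Ccr2, and Ccr2 stood at 3.86 ± 0.652, 30.0 ± 2.61 and 10.3 ± 0.864 CPM in Th1, TfhA and Tfh5. For Il2ra they were Cyfip1 (r = 0.994), St8sia4 and Plxnc1, and for Il2rb Irf8 (r = 0.981), Prkch and Tes. For Il2rg they included Dhcr7 (r = 0.909) and Herpud1, a looser likeness than for the other members. For Stat5a they were Cd83 (r = 0.988), Runx3 and Ppp1r3b, and for Stat5b Zfp629 (r = 0.989), Rara and Tent5c. For Cish they were Eif4ebp1 (r = 0.996), Aldoa and Ccnd3, of which Ccnd3, a cyclin, is also among the listed STAT5-induced genes. For Socs1 they were Agpat1 (r = 0.973), Rpl32l and Nck2, and for Socs2 Tpd52 (r = 0.951), Iqcb1 and Gbp2. Among the members themselves Stat5a had r = 0.97 with both Il2ra and Cish, and -0.03 with Stat5b.

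Other markers differed between groups too. Cd74, the invariant chain of class II presentation, was at 175 ± 22.9 CPM in Th1, 60.5 ± 17.8 in TfhA and 6.84 ± 1.30 in Tfh5, the order seen for Il2ra, Stat5a and Cish. Its list of 8 myeloid and dendritic genes summed to 162 to 221, 48.6 to 99.6 and 9.9 to 14.7 CPM, with Itgax at 0 in Th1, Lyz2 in TfhA, and Lyz2 and H2-Aa in Tfh5. Most of that sum was Cd74. Between Th1 and TfhA other genes of the list went the opposite way: H2-Aa was at 0.361 ± 0.143 and 6.99 ± 1.16 CPM, and Itgam at 0.150 ± 0.131 and 2.02 ± 0.601 CPM. The 7 B cell genes summed to 64.3 to 75.2, 77.7 to 98.0 and 192 to 233 CPM. Within that list Ighm was at 41.1 ± 2.97, 65.8 ± 8.64 and 211 ± 17.1 CPM, Ebf1 went the other way at 29.3 ± 3.64, 17.2 ± 4.45 and 0.526 ± 0.442 CPM, and Pax5 was at 0 in Th1. The part of these transcripts in the differences above was not tested.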

How the data were processed

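The authors deposited raw counts per gene for 14 libraries, under Entrez identifiers and with no normalization. The submitters' processing notes name STAR 2.7.2b, featureCounts 1.6.4 and mm10; for the annotation, strand setting and treatment of reads with several matches, the sources used here give nothing. The series table was identical to the 14 single-sample files. Symbols came from RefSeq (25275 of 27179 genes had one, 1904 had none), as did gene positions. Strands, exon overlaps and lengths came from the GENCODE annotation of the same build.

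All libraries entered one edgeR 4.0.16 fit (R 4.3.3; filterByExpr, TMM, group means, no covariate), tested with the two-sided quasi-likelihood F test and Benjamini-Hochberg adjustment over 13075 genes. CPM carry TMM scaling, and log2 CPM a prior count of 2. The SE is the log2 fold change divided by the square root of F. The common biological coefficient of variation was 14.25%. Replicate pairs differed by more than counting error (chi-square per degree of freedom 4.3 to 32.6 over 26 pairs). Ratios are log2 of counts with 0.5 added to each gene. The fit was checked on simulated counts, read for TfhA against Th1. The permutation test was checked on a fixed case of fully separate values.

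The 9 genes and the lists were chosen with earlier results of these data known. Named genes are all 9 members; of each pathway list up to 3 passing genes per direction that reach 5 CPM in a group, ordered by size; for each member the 3 most correlated genes; and markers at or above 5 CPM. Bcl6, Nfatc1, Nfatc2, Nfatc3, Il18r1 and markers under 5 CPM were named after their values were seen. Alternatives were DESeq2 1.42.0 and its size factors, limma 3.58.1 voom, library totals alone, no mitochondrial genes, no filter, only the 2 groups compared, a replicate block, leaving out each library, and 5 counts added to ratios. One marker gene, Tcrg-C4, was not matched to the table. Some genes that the rule names are not reported here.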

Additional observations from a re-analysis of the deposited data

Results flagged for a closer look

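In 183 sets of libraries (each named gene or ratio in 1 group), the highest or lowest library was set against the rest by Dixon's test, which chance passes in about 5% of sets, and 12 stood apart. Among the 9 members this was 1 value: Socs2 in Th1 replicate 1, at 205 CPM where the other Th1 libraries held 227 to 235.

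The same library, the deepest at 16108059 counts, stood apart for 4 listed genes. Crem was at 533 CPM (others 674 to 729), Il7r at 251.7 (312 to 332), Il21r at 391 (263 to 289) and Pias4 at 32.1 (24.8 to 26.3). Th1 replicate 2 held 0.971 CPM of Il17a (others 0 to 0.0756) and 8.60 CPM of Il17f (0.624 to 0.907).

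In Tfh5, replicate 1 held 16.1 CPM of Gzmb (others 1.61 to 3.74) and 14.4 of Rel (26 to 29.4), and replicate 2 held 2346 of Irf4 (2176 to 2205). In TfhA, replicate 4 held 755 CPM of Ikzf1 (954 to 982) and replicate 5 held 41.5 of Tnfrsf1b (51.4 to 51.8).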

How the results depend on the processing

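No member or named list gene changed direction in the alternatives run for it (up to 22), nor did a ratio (10 or 11), and 582 member values kept their side of the threshold, 10 lost their call and 2 gained one. With single libraries left out, log2 fold changes whose call moved ran from -0.42 to -0.21 (Il2rg) and 0.14 to 0.49 (Socs1) in Tfh5 against TfhA, from -0.48 to -0.33 (Socs2) and 0.039 to 0.25 (Il2rg) in TfhA against Th1, and from 0.18 to 0.26 (Stat5b) in Tfh5 against Th1. Members higher were 1 or 2 in both comparisons with Th1. Log2 ratios ran from -0.27 to -0.064 (Cish to Socs1, TfhA against Th1) and 0.59 to 0.89 (Socs2 to Cish, Tfh5 against TfhA). Socs2 in TfhA against Th1 was -0.33 with library totals alone, and Stat5b in Tfh5 against Th1 0.19 with no filter on low counts, which left 1 member higher. Il17a and Il17f in Tfh5 against Th1 went from 1275-fold to 5017-fold and from 1384-fold to 4166-fold when Th1 replicate 2 was left out. DESeq2 gave no adjusted p for 2 genes in each comparison. The causes were not tested. Libraries with the same replicate number shared little deviation from their group means (correlation -0.048 to 0.155 over 13 pairs). This cannot settle whether equal numbers share a mouse or culture, which the sources do not state. The replicate block changed no member call but ended those of Ptpn6 and Stat4 in TfhA against Th1, with 7258 genes passing in Tfh5 against TfhA and 5521 in TfhA against Th1 in place of 7520 and 5852. No scaling moved the median of all genes by over 0.1. Depth limits Il2 in Th1 most, at 188 counts over 5 libraries.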
